A study of Mus musculus with 4 samples.

Results

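Among mouse spleen cells, the authors named 2823 cells Nai Cd4, their name for naive CD4 T cells. The name was read from the deposited cell annotation. These cells are 2823 of the 24143 barcodes that carry 1 of 16 names, out of 27577 barcodes called as cells. They came from 4 droplet single-cell libraries, 1 library per group, and from C57BL/6 mice throughout. The young WT library gave 1390 of them, the aged WT library 485, the library of aged mice lacking miR-146a in the whole body (miR-146a knockout) 337, and the library of aged mice lacking miR-146a in the whole body and miR-155 in T cells (double knockout) 611.

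Aged mice were 15 months old, and each aged library pooled the spleens of 3 to 6 animals. The design gives WT as miR-155 fl/fl, a gene flanked for deletion. The young animals are labelled WT only. The sources used here do not give their age or pool size, the driver of the T cell deletion, or whether the miR-146a knockout mice carried the floxed gene. Before loading, the spleen cells were sorted as DAPI-, CD45+, FSC-low and SSC-low, which takes live, small white cells of low granularity. The series compares aged animals with and without these microRNAs, and the young library is the reference for age.

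Naive CD4 T cells have left the thymus but have not yet met their antigen. They circulate through spleen and lymph nodes with homing receptors such as that encoded by Ccr7, and transcription factors such as Lef1, Tcf7, Satb1, Foxo1 and Klf2 keep them quiescent. After antigen, CD4 T cells become helper, follicular helper, regulatory or memory cells, with genes such as Cd44, S100a4, Itgb1, Cxcr3, Maf and Icos, and in regulatory cells Foxp3 and Ikzf2. miR-146a is induced by NF-kB and represses the signalling adaptors Traf6 and Irak1, while miR-155 is induced on T cell activation and represses inhibitors such as Socs1 and Inpp5d.

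The mature microRNAs that distinguish the groups are shown because the knockouts were made to remove them. They are from RefSeq (GRCm38.p6), and capitals mark the seed, bases 2 to 8. miR-146a-5p lies at chr11:43374435-43374456 on the minus strand, and miR-155-5p at chr16:84714143-84714165 on the plus strand.
mmu-miR-146a-5p: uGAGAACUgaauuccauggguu
mmu-miR-155-5p: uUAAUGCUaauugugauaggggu
A full match to the seed followed by A reads AGTTCTCA for miR-146a and AGCATTAA for miR-155 in a transcript. The letters were searched on the transcript strand only, in the 3′ UTRs that GENCODE M21 (GRCm38) annotates. Traf6 and Irak1 are textbook miR-146a targets and Socs1 and Inpp5d textbook miR-155 targets. Ikzf2, encoding the transcription factor Helios, and Gpm6b, encoding a membrane glycoprotein, were added after their values were seen, because they differ strongly between the libraries. Capitals mark the match.
Traf6 site for miR-146a: aagttaccgctctggtgttgAGTTCTCA
Irak1 site for miR-146a: ccctcagactcagaggtcaaAGTTCTCA
Ikzf2 site for miR-146a: gttttaatctgatctttgtgAGTTCTCA
Socs1 site for miR-155: ccggctgccgctgtgccgcAGCATTAA
Inpp5d site for miR-155: gtcctgagatgtttttaaaaAGCATTAA
Gpm6b site for miR-155: ctaatattttttatgtaaagAGCATTAA
Such a match is a description of the sequence. N6amt1 and Rnmt, which also differed between libraries, hold the miR-146a letters too, and their sites are not shown. The miR-146a letters occur 4 times in the Traf6 UTR, 2 times in those of Irak1 and Ikzf2, and at least once in the UTR of 5.22% of the 4314 genes with a UTR that were measured in the knockout against aged WT. The miR-155 letters occur in 3.94% of the 4544 genes measured in the double knockout against the knockout.

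The values are unique molecular identifiers (UMIs), 1 per captured RNA molecule, summed over the Nai Cd4 cells of a library and scaled to a total of 1000000 (CPM). Where 4 values follow each other, they are young WT, aged WT, miR-146a knockout and double knockout. The sums were 3384506, 1124006, 759310 and 1268174 UMIs, and the medians per cell 2382.5, 2174, 2126 and 1955. Intervals are at 95% and cover counting error only. With 1 library per group there is no replicate check and no test, and a difference between libraries cannot be told apart from one between pools or preparations. A gene is called higher or lower where its CPM differs at least 1.5-fold and it has at least 50 UMIs over both libraries. A gene low in 1 library can pass this floor through the other alone, so counts of called list members describe the measured ones only. It also holds for genes below where it is not repeated, such as Cxcr3 and Ikzf2 with age. Since the values are sums, fewer cells of a kind within the annotation and less RNA per cell cannot be told apart.

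Cells with the name Nai Cd4 held Cd4 and Cd3e RNA in every library, but their naive markers were not equally high in all of them. Cd4, the coreceptor for MHC class II, stood at 150.4, 157, 186 and 147 CPM, second to Mem Cd4 cells in all 4 libraries. Cd3e, a chain of the T cell receptor complex, stood at 537, 581, 623 and 517 CPM. Tcf7, a transcription factor of naive and memory T cells, was higher in Nai Cd4 cells than in any other named type in all 4 libraries. Trat1 and Tesc, 2 of the 5 markers set for these cells, were also highest there in all 4. Igfbp4, the leading marker, was highest in Nai Cd4 cells of young and aged WT, but second to Nai Cd8 cells in both knockout libraries. The set markers Lef1 and Cd40lg were highest there in young WT only. In the aged libraries Lef1 was second to Nai Cd8 cells and Cd40lg to Mem Cd4 cells. Cd40lg stood at 60.9, 56.9, 42.1 and 47.3 CPM, beside 52.0, 67.2, 49.9 and 78.0 CPM in Mem Cd4 cells.

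By the naive markers the label holds in young WT, though CD8 RNA was found there too. In the aged libraries, and most in the miR-146a knockout, many cells with the label held no UMI of Igfbp4, Lef1 or Ccr7. Many of these carried memory or regulatory markers. All cells with the label are called Nai Cd4 below by the authors' name only. Each cell was thinned to 1000 UMIs so that depth could not set the shares. This left out 11, 4, 29 and 8 cells with fewer UMIs. Igfbp4 was then found in 27.4% of young WT cells, 26.8% of aged WT cells, 5.84% of knockout cells and 14.6% of double knockout cells. Without thinning, the shares were 44.3%, 35.1%, 6.23% and 21.9%. In follicular B cells (Fo B), which should lack the gene, it was found in at most 0.411% of thinned cells. Their median depths were 1725, 1678, 2296 and 1758 UMIs.

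RNA of genes typical of other cells was present at different levels. The 11 myeloid markers summed to 160, 198, 1036 and 1044 CPM, with Csf1r at 0 in aged WT and Itgam at 0 in the knockout. S100a8, a neutrophil gene, was found in 37.3% and 42.3% of thinned Nai Cd4 cells of the knockout and double knockout, beside 32.6% and 42.0% of Fo B cells. The 11 B cell markers summed to 789, 1370, 961 and 588 CPM, with Pax5 at 0 in the double knockout only. The 6 erythroid markers summed to 14.5, 2.67, 128 and 16.6 CPM, with Alas2 at 0 in the 3 aged libraries, and Hba-a1 and Hba-a2 at 0 in aged WT. Cd8a and Cd8b1 together summed to 259, 204, 115 and 233 CPM, with neither at 0. The 7 NK markers summed to 34.6, 15.1, 35.6 and 24.4 CPM, with 3 to 5 of them at 0 in the aged libraries, the 6 gamma-delta T markers to 65.9, 32.9, 6.58 and 28.4 CPM, and the 6 plasma cell markers to 57.6, 127, 159 and 149 CPM. Of 4 platelet markers, 1 UMI was counted in all. The part of these other cells in the results was not tested. Only 4 Nai Cd4 barcodes were shared between libraries, among 315 shared barcodes of all names.

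The ribosomal share of a cell's UMIs also moved with the groups, with medians of 38.9%, 33.2%, 28.3% and 31.7%. The mitochondrial share had medians between 2.76% and 2.91%. For the check of the deletions, Mir155hg, the miR-155 host transcript, had 5, 8, 6 and 4 UMIs in Nai Cd4 cells, which is too few to show a deletion, and no host transcript of miR-146a was measured.

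Nai Cd4 cells made up a smaller share of named spleen cells in the aged libraries. They were 20.4% (19.4 to 21.4) of named cells in young WT, 8.23% (7.54 to 8.96) in aged WT, 6.97% (6.27 to 7.73) in the miR-146a knockout and 9.27% (8.58 to 9.99) in the double knockout. The aged WT share was 2.48-fold lower than the young one, with a ratio of 0.404 (0.366 to 0.445). The knockout share was 0.848 (0.742 to 0.969) times that of aged WT, and the double knockout share 1.33 (1.17 to 1.51) times that of the knockout.

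Among T cells the step with age was smaller and that of the knockout against aged WT was not. Of all named T cells, Nai Cd4 cells were 47.9%, 27.6%, 22.3% and 29.3%. Of cells named Nai Cd4 or Mem Cd4 they were 81.6%, 48.6%, 35.4% and 46.6%, while Mem Cd4 cells numbered 314, 512, 616 and 700. Over these CD4 cells the aged WT share was 0.596 (0.557 to 0.638) times the young one, and the knockout share 0.727 (0.653 to 0.809) times that of aged WT. Against aged WT, the double knockout share was 1.13 (1.01 to 1.26) times as high among named cells but 0.958 (0.879 to 1.04) among CD4 cells, so its direction depended on the denominator. No source used here says how the authors drew the border between the 2 names.

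**Figure D1:**
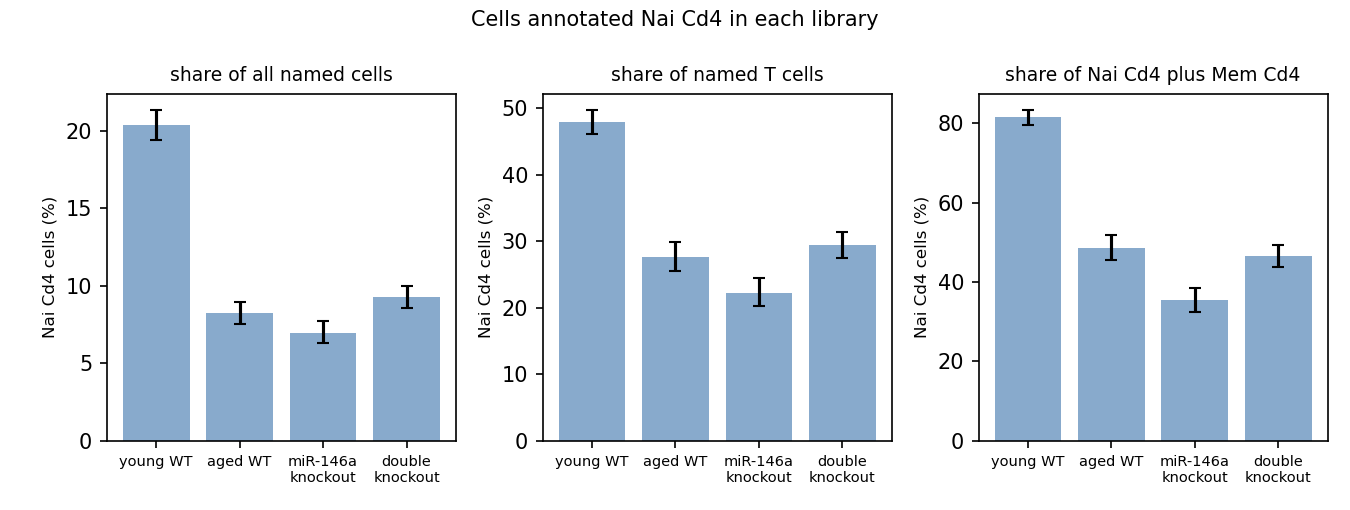
Bars give the percentage of cells annotated Nai Cd4 in each of the 4 libraries, over all named cells, named T cells, and Nai Cd4 plus Mem Cd4 cells; error bars are exact 95% binomial intervals. The young WT bar is the highest in all 3 panels (20.4%, 47.9% and 81.6%) and the miR-146a knockout bar the lowest (6.97%, 22.3% and 35.4%).

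In aged WT, compared with young WT, Nai Cd4 cells held more RNA of effector memory, regulatory and follicular helper genes and of interferon gamma responsive genes, while Dapl1, Lef1 and Ly6c1 were lower and most other naive genes were within 1.5-fold. Of 6586 genes measured, 559 were called higher (8.49%) and 233 lower (3.54%). The interval lay wholly beyond 1.5-fold for 82 higher (1.25%) and 10 lower genes (0.152%). The median log2 ratio over all genes was 0.10.

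The effector memory list had 19 measured members, of which 15 were called higher and none lower, with a median log2 ratio of 1.55. S100a4, a calcium-binding protein of motile cells, stood at 16.8, 207, 578 and 280 CPM, 12.3-fold higher (9.18 to 16.7) in aged than in young WT. S100a6, a related protein, stood at 39.6, 428, 1438 and 678 CPM, 10.8-fold higher (8.91 to 13.2). Both were lowest in young WT and highest in the miR-146a knockout. Cxcr3, a chemokine receptor of type 1 helper cells, went from 9.45 to 106 CPM and was 11.2-fold higher (7.52 to 17.1). Itgb1, the integrin beta 1 chain, was 6.25-fold higher (5.002 to 7.84), at 35.2 and 220 CPM. Cd44, the standard memory marker, stood at 12.7 and 40.0 CPM and was 3.15-fold higher (2.03 to 4.90). Ccl5, a chemokine stored by memory cells, stood at 97.5 and 99.6 CPM, a ratio of 1.02 (0.817 to 1.27).

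The regulatory T list has 13 members, and the rest had too few UMIs beside the 5 measured. All 5 were called higher, with a median log2 ratio of 2.64. Nrp1, a semaphorin receptor, stood at 2.95, 69.4, 195 and 103 CPM and was 23.5-fold higher in aged WT (12.1 to 50.9), the first gene by the naming rule. It had 10 UMIs in young WT and 78 in aged WT, so it passed the UMI floor through aged WT. Ikzf2 stood at 13.9, 174, 622 and 335 CPM and was 12.6-fold higher (9.09 to 17.7). Foxp3, the transcription factor that defines regulatory T cells, had only 7 UMIs in young WT and 41 in aged WT, or 2.07 and 36.5 CPM, and had too few UMIs over both libraries to be measured. It was found in 0.290% of thinned young cells and 3.53% of aged WT cells.

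Of 17 follicular helper genes 8 were measured, of which 6 were called higher and none lower, with a median of 1.06. Izumo1r, a folate receptor family member also called FR4, stood at 109, 359, 694 and 483 CPM and was 3.30-fold higher (2.86 to 3.81). Maf, a transcription factor of helper cytokine programmes, stood at 3.55, 52.5, 179 and 91.5 CPM and was 14.8-fold higher (7.87 to 30.3). It had 12 UMIs in young WT and 59 in aged WT, so it passed the UMI floor through aged WT. Icos, a costimulatory receptor, was 2.63-fold higher (1.88 to 3.68), at 23.6 and 62.3 CPM. The inhibitory receptor Lag3 had no UMI in young WT and 24 in aged WT, too few over both libraries to be measured.

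The interferon gamma list had 8 of 17 measured members called higher and none lower, with a median of 0.59. Iigp1, an immunity-related GTPase, stood at 21.0, 80.1, 88.2 and 80.4 CPM and was 3.82-fold higher in aged WT (2.77 to 5.29). Gbp2, a guanylate-binding protein, stood at 42.5, 96.1, 101 and 101 CPM and was 2.26-fold higher (1.74 to 2.92). The 3 aged libraries were close to each other for both genes. Among feedback inhibitors of cytokine signalling, Socs3 was 2.63-fold higher (2.13 to 3.24), at 58.5 and 154 CPM, and Socs1 was 2.17-fold higher (1.58 to 2.96), at 29.5 and 64.1 CPM. The type I interferon list had 3 of 29 members called higher and 3 lower, with a median of 0.09, close to that of all genes. Its member Ifi208 was lower, at 75.3 and 24.0 CPM, or 3.14-fold (2.11 to 4.85).

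MHC class I genes had 4 of 16 members called higher and a median of 0.38. H2-Q6, a class Ib gene, stood at 29.3, 125, 154 and 171 CPM and was 4.26-fold higher (3.27 to 5.57). H2-Q7, its near-identical neighbour, was 1.92-fold higher (1.75 to 2.12), at 314 and 605 CPM, and the split of reads between the 2 is uncertain. B2m, the shared light chain of class I, stood at 3052, 3779, 4957 and 4164 CPM, a ratio of 1.24 (1.19 to 1.28), short of 1.5-fold.

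Other genes named by the rule as higher with age were Casp1, Zc3h12d, Capg, Lpxn, Tspan3 and S100a11. Casp1, the protease of inflammasomes, stood at 2.36, 48.0, 96.1 and 67.8 CPM and was 20.3-fold higher (9.61 to 49.5). With 8 UMIs in young WT and 54 in aged WT, it passed the UMI floor through aged WT. S100a11, another calcium-binding protein, stood at 147, 431, 889 and 543 CPM and was 2.93-fold higher (2.58 to 3.32). Capg, an actin-capping protein, was 2.79-fold higher (2.26 to 3.44), at 55.8 and 156 CPM. Zc3h12d, which encodes an RNA-binding regulator, was 3.48-fold higher (2.35 to 5.17), and the adaptor gene Lpxn and the tetraspanin gene Tspan3 were 3.01-fold (2.21 to 4.10) and 3.24-fold higher (2.19 to 4.80).

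Naive genes moved less with age. Of 12 naive transcription factors, 1 was called higher and 1 lower, and of 13 naive surface and signalling genes, none higher and 2 lower, with medians of −0.12 and −0.08. Lef1, a partner of Tcf7, stood at 761, 435, 182 and 367 CPM and was 1.75-fold lower in aged WT (1.59 to 1.93). Id3, which restrains E proteins, was the member called higher, at 118 and 183 CPM, a ratio of 1.55 (1.30 to 1.83). Tcf7 stood at 414, 378, 340 and 392 CPM and Klf2, a factor behind S1pr1, at 1335, 1290, 1370 and 1411 CPM, each within 1.5-fold in all comparisons.

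Dapl1, a gene of resting T cells, stood at 627, 297, 63.2 and 306 CPM and was 2.11-fold lower with age (1.88 to 2.37). Ly6c1, a surface protein of part of the naive pool, stood at 201, 71.2, 13.2 and 86.7 CPM and was 2.82-fold lower (2.23 to 3.60); its near-identical copy Ly6c2 stood at 23.9 and 22.2 CPM, and the split between them is uncertain. Igfbp4, a secreted binding protein of insulin-like growth factors, went the other way, at 404 and 591 CPM, a ratio of 1.46 (1.33 to 1.61) that did not reach 1.5-fold. Ccr7 stood at 475 and 384 CPM, a ratio of 0.810 (0.727 to 0.901). The rule also named Nacc2, Mir142hg, Pdlim4 and Zfp7 as lower. Nacc2, a transcriptional repressor gene, stood at 34.0 and 5.34 CPM, 6.37-fold lower (2.84 to 17.7), and Pdlim4, an actin-associated gene, at 107 and 37.4 CPM, 2.85-fold lower (2.07 to 4.03).

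Ribosomal protein, T cell receptor signalling and oxidative phosphorylation genes moved little. Of 81 cytosolic ribosomal protein genes none was called, but 75 had an interval below 1, with a median of −0.15. Of 24 T cell receptor signalling genes none was called higher and 1 lower, with a median of 0.11, and the 81 oxidative phosphorylation genes had a median of 0.01 and no call. NF-kB genes had 8 of 21 members called higher and none lower, with a median of 0.50, and genes that respond to the T cell receptor 4 of 8, also with a median of 0.50.

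The split of calls with age depended on the scaling. Dividing by totals without ribosomal and mitochondrial genes gave 352 higher and 337 lower genes and a median of 0.00, and TMM factors gave 358 higher and 333 lower genes and a median of 0.01. DESeq2 size factors gave 365 and 325. The 63 gene ratios recomputed under each of the 3 scalings, over all comparisons, kept their direction. When cells with any UMI of 6 memory or 4 regulatory markers were left out, an alternative chosen after seeing the data, the median of the effector memory list with age was −0.18 in place of 1.55. That list shares genes with the markers used to leave cells out. The interferon gamma median was then 0.68, and Igfbp4 stood at 411 CPM in young WT and 858 CPM in aged WT, a ratio of 2.09 (1.87 to 2.33).

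**Figure D2:**
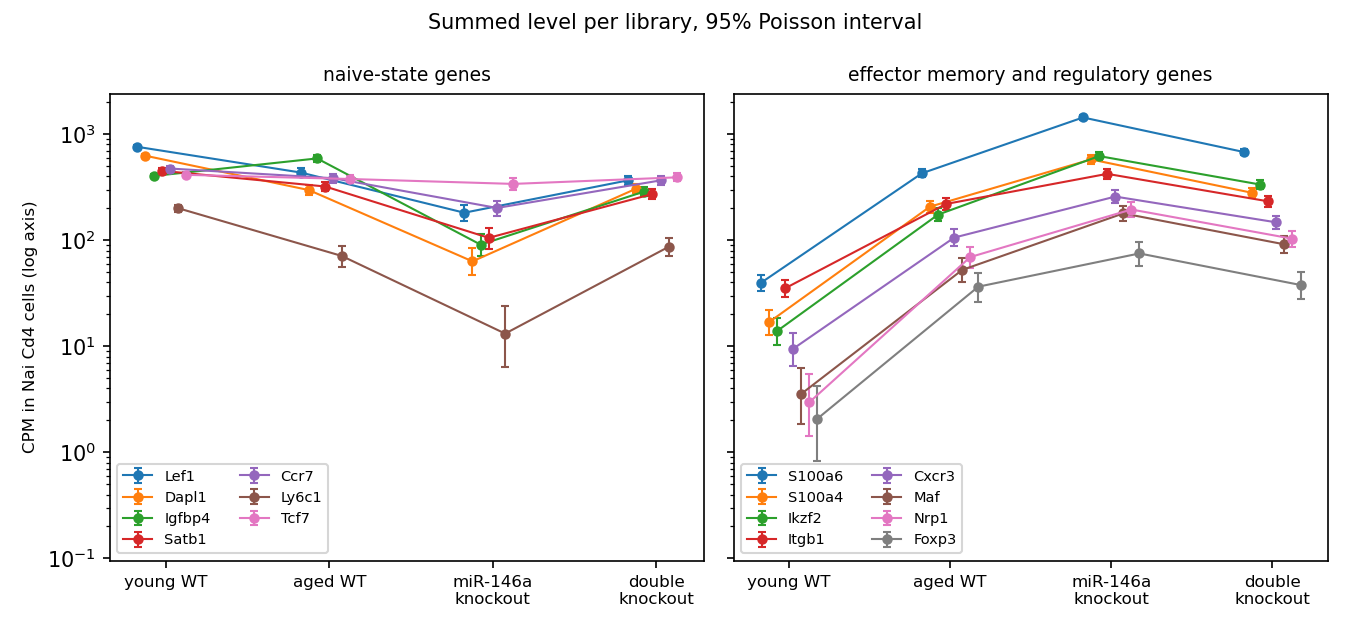
Points give the summed CPM of each gene in Nai Cd4 cells of each library on a log axis, with exact 95% Poisson intervals; lines join the values of 1 gene. Lef1, Dapl1, Satb1, Ccr7, Igfbp4 and Ly6c1 are lowest in the miR-146a knockout, where all 8 effector memory and regulatory genes are highest.

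In the miR-146a knockout, compared with aged WT, Nai Cd4 cells held less RNA of part of the naive genes and more of most measured effector memory, regulatory, follicular helper and inhibitory receptor genes. Igfbp4, Dapl1, Treml2, Ly6c1, Satb1 and Lef1 were each over 2-fold lower. This comparison shares the aged WT library with the one above. Of 4368 genes measured, 348 were called higher (7.97%) and 225 lower (5.15%). The interval lay wholly beyond 1.5-fold for 67 higher (1.53%) and 27 lower genes (0.618%), and the median log2 ratio of all genes was 0.05. Divided by totals without ribosomal and mitochondrial genes, the split was 263 higher and 316 lower, so which direction held more genes depended on the scaling.

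Of 13 naive surface and signalling genes, 6 were called lower and none higher, with a median of −0.50. Igfbp4 stood at 591 CPM in aged WT and 90.9 CPM in the knockout, 6.50-fold lower (5.07 to 8.46), the first gene by the naming rule. Dapl1 was 4.70-fold lower (3.47 to 6.50), at 297 and 63.2 CPM. Both were also below their level in young WT and in the double knockout. Treml2, a receptor of the TREM family, stood at 70.3 and 10.5 CPM and was 6.67-fold lower (3.23 to 15.99). Ly6c1 was 5.40-fold lower (2.79 to 11.7), at 71.2 and 13.2 CPM. Actn1, an actin crosslinker, stood at 277, 214, 112 and 127 CPM, a ratio of 0.524 (0.404 to 0.674). Trat1, an adaptor of the T cell receptor, stood at 101, 80.1, 51.4 and 95.4 CPM, and its ratio of 0.641 (0.429 to 0.944) made it the sixth. Il7r, the receptor for the survival factor interleukin-7, stood at 306 and 344 CPM, a ratio of 1.12 (0.953 to 1.32), and Cd27, a costimulatory receptor, at 479 and 468 CPM, a ratio of 0.977 (0.852 to 1.12).

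Of 12 naive transcription factors, 5 were called lower and none higher: Satb1, Lef1, Bach2, Foxp1 and Foxo1. The median of the list was −0.09, since the other 7 members lay near or above 1. Satb1, a chromatin organiser, stood at 452, 321, 105 and 273 CPM and was 3.05-fold lower in the knockout (2.39 to 3.93). Lef1 was 2.39-fold lower (1.98 to 2.91), at 435 and 182 CPM. Both were again lowest in the knockout. Foxp1, a quiescence factor, stood at 291 and 161 CPM, a ratio of 0.552 (0.445 to 0.682), and Foxo1, which maintains Il7r, at 125 and 83.0 CPM, a ratio of 0.666 (0.487 to 0.903). Bach2, a repressor of effector genes, had a ratio of 0.434 (0.237 to 0.756), at 51.6 and 22.4 CPM. Tcf7 had a ratio of 0.899 (0.767 to 1.05) and Klf2 a ratio of 1.06 (0.980 to 1.15).

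Homing receptors did not move as one. Of 10 measured, 2 were called lower and 1 higher, and the median was 0.35, above that of all genes. Ccr7 stood at 384 and 201 CPM, 1.91-fold lower (1.58 to 2.31). Itga4, the integrin alpha 4 chain, was higher, at 106, 198, 328 and 249 CPM, a ratio of 1.65 (1.37 to 1.99). S1pr1, the egress receptor, stood at 220, 217, 161 and 225 CPM, a ratio of 0.740 (0.591 to 0.924).

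Of 23 measured cytokine receptor and JAK-STAT genes, 4 were called higher and 1 lower, with a median of 0.18. A single lower call is near the share of lower calls among all genes. The lower one was Il4ra, the interleukin-4 receptor chain, at 72.7, 79.2, 27.7 and 48.1 CPM, 2.86-fold lower (1.76 to 4.85). Ifngr1, the ligand-binding chain of the interferon gamma receptor, was higher, at 97.8, 190.4, 298 and 185 CPM, a ratio of 1.56 (1.29 to 1.89). Its partner chain Ifngr2 had 35 UMIs in aged WT and 4 in the knockout, too few to be measured. The rule also named Ccpg1, a gene of the endoplasmic reticulum, as lower, at 27.5, 68.5, 22.4 and 33.9 CPM, 3.06-fold (1.79 to 5.52), and Rgcc, a regulator of the cell cycle, at 88.05, 68.5, 23.7 and 67.8 CPM, 2.89-fold (1.71 to 5.13).

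Of 18 effector memory genes, 12 were called higher and 1 lower, with a median of 0.94. S100a6 was 3.36-fold higher (3.02 to 3.75), at 428 and 1438 CPM, and S100a4 was 2.79-fold higher (2.37 to 3.28), at 207 and 578 CPM. Cxcr3 was 2.44-fold higher (1.93 to 3.09), at 106 and 258 CPM. Each of these already differed between young and aged WT. Ccl5 did not, at 97.5, 99.6, 581 and 252 CPM, and was 5.83-fold higher in the knockout than in aged WT (4.73 to 7.24). It was left out of the named genes because its level was far below that of another named type in the same library. The member called lower was Cxcr6, a chemokine receptor, at 40.0 and 26.3 CPM, a ratio of 0.658 (0.368 to 1.14).

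Of 13 regulatory T genes 7 were measured, of which 6 were called higher and none lower, with a median of 1.48. Ikzf2 was 3.56-fold higher (3.01 to 4.23), at 174 and 622 CPM, and Nrp1 was 2.81-fold higher (2.12 to 3.74), at 69.4 and 195 CPM. Foxp3 was 2.06-fold higher (1.35 to 3.15), at 36.5 and 75.1 CPM. Tnfrsf4, the costimulatory receptor OX40, stood at 8.86, 56.0, 211 and 113 CPM and was 3.76-fold higher (2.79 to 5.12). Of these 4 genes only Foxp3 defines regulatory cells, and the others are also used by activated or memory cells.

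Of 17 follicular helper genes 9 were measured, of which 8 were called higher and none lower, with a median of 0.99. Maf was 3.41-fold higher (2.50 to 4.71), at 52.5 and 179 CPM. Sh2d1a, the adaptor SAP that helper cells need for contact with B cells, stood at 92.5, 128, 308 and 206 CPM and was 2.41-fold higher (1.95 to 2.98). Pdcd1, which encodes PD-1, stood at 1.77, 15.1, 67.2 and 26.0 CPM and was 4.44-fold higher (2.52 to 8.20). Among 11 inhibitory receptor and Tox genes 6 were measured, of which 4 were called higher and none lower, with a median of 0.81. Lag3, an inhibitory receptor that binds MHC class II, stood at 0, 21.4, 89.6 and 52.0 CPM and was 4.19-fold higher (2.60 to 6.99). Pdcd1 and Lag3 passed the UMI floor through the knockout library. Of 15 helper lineage transcription factors 8 were measured, of which 4 were called higher and none lower, with a median of 0.66. Gata3, the factor of type 2 helper cells, stood at 52.0, 62.3, 132 and 65.5 CPM, a ratio of 2.11 (1.54 to 2.91), and Rora, a factor of type 17 helper cells and others, at 10.6, 33.8, 92.2 and 64.7 CPM, a ratio of 2.73 (1.81 to 4.16).

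The rule further named Serpina3g, Cst7, Sdcbp2, Gpm6b, Glrx, Ly6a and Tpm3-rs7 as higher. Gpm6b stood at 0.886, 55.2, 171 and 83.6 CPM and was 3.10-fold higher (2.28 to 4.27). Ly6a, the surface protein Sca-1, stood at 183, 338, 768 and 447 CPM and was 2.27-fold higher (1.99 to 2.59). Cst7, an inhibitor of granule proteases, stood at 15.7, 43.6, 148 and 86.0 CPM and was 3.38-fold higher (2.40 to 4.84). Serpina3g, another protease inhibitor, was 3.64-fold higher (2.46 to 5.49), and Glrx, which reduces oxidised proteins, was 2.94-fold higher (2.14 to 4.06).

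Tpm3-rs7 stood at 10.0, 11.6, 270.0 and 291 CPM, 23.3-fold higher (13.3 to 44.6), while Tpm3, a tropomyosin gene, stood at 498, 543, 259 and 239 CPM, 2.09-fold lower (1.78 to 2.47). These are near-identical copies, so the split between them is uncertain. The same switch was present in Mem Cd4 cells, where Tpm3-rs7 stood at 7.81, 3.01, 305 and 297 CPM.

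Genes of innate signalling moved less than the memory genes. Of 16 NF-kB subunits and feedback genes, 6 were called higher and none lower, with a median of 0.18. Traf1, a TNF receptor adaptor induced by NF-kB, stood at 61.2, 92.5, 169 and 162 CPM, a ratio of 1.82 (1.40 to 2.38), and Icam1, an adhesion molecule, at 25.8 and 60.6 CPM, a ratio of 2.35 (1.44 to 3.88). Nfkbia, the inhibitor IκBα, stood at 218, 291, 414 and 388 CPM, a ratio of 1.42 (1.21 to 1.66). The interferon gamma list had 1 of 15 members called higher and 1 lower, with a median of 0.15. Irgm1, an immunity-related GTPase, was the lower one, at 42.8, 68.5, 15.8 and 19.7 CPM, 4.33-fold lower (2.34 to 8.75) and similarly low in both knockout libraries. The type I interferon list had 5 of 22 members called higher and 3 lower, with a median of 0.03. Ifi27l2a, an interferon-induced mitochondrial protein, stood at 687, 602, 1187 and 957 CPM, a ratio of 1.97 (1.78 to 2.18), and Isg15, a ubiquitin-like protein, at 46.1, 66.7, 34.2 and 62.3 CPM, a ratio of 0.513 (0.315 to 0.811). None of 16 MHC class I genes was called, with a median of 0.28, and ribosomal protein genes had a median of −0.17.

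Myeloid and erythroid RNA was higher in the knockout than in aged WT, as given above, and its part in these results was not tested. Cd8a and Cd8b1 together had a summed ratio of 0.562 (0.434 to 0.723) and the B cell markers of 0.702 (0.642 to 0.767). Without cells that held a UMI of Foxp3, Cd8a or Cd8b1, Igfbp4 had a ratio of 0.158, and without cells that held at least 2 B cell marker UMIs, of 0.154. Lef1, Igfbp4, Ikzf2 and Nrp1 were found in at most 1.16% of thinned Fo B cells in any library. S100a6 was found in 2.60% of aged WT and 8.63% of knockout Fo B cells, beside 16.2% and 50.3% of Nai Cd4 cells.

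Several of the larger knockout differences were smaller, and others were not, when cells with any UMI of the memory or regulatory markers were left out, which kept 242 cells of aged WT and 42 of the knockout. Igfbp4 then stood at 858 and 519 CPM, a ratio of 0.605 (0.440 to 0.815) in place of 0.154. Lef1 had a ratio of 0.869 (0.626 to 1.18), Satb1 of 0.904 (0.631 to 1.26) and Ccr7 of 0.856 (0.602 to 1.19). Dapl1 kept a ratio of 0.314 (0.160 to 0.559), with 12 UMIs in the knockout. Ccl5 had a ratio of 3.58 (2.14 to 5.88) and Ly6a of 1.82 (1.23 to 2.65). The intervals of Lef1, Satb1 and Ccr7 then included 1, while those of Igfbp4, Dapl1, Ccl5 and Ly6a did not. Other ratios lay farther from 1 than in all cells, on few UMIs. Foxo1 had a ratio of 0.254 (0.0512 to 0.773) in place of 0.666, with 72 UMIs in aged WT and 3 in the knockout. Smco4, a small membrane protein gene, had a ratio of 3.81 (1.55 to 8.93) in place of 2.22, with 16 and 10 UMIs. This setting was chosen after seeing the data, by markers that include genes differing between these libraries. Igfbp4 was found less often in cells with Ikzf2, so leaving those out can itself move its ratio. The markers were read in unthinned cells, so deeper cells were left out more readily.

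In the double knockout, compared with the miR-146a knockout, Nai Cd4 cells held more RNA of part of the naive genes and less of most measured effector memory and regulatory genes. Dapl1, Ly6c1, Igfbp4, Satb1, Lef1 and Ccr7 were higher, and S100a6, S100a4, Ikzf2, Itgb1, Maf and Casp4 lower. This comparison shares the knockout library with the one above, so a low or high value there enters both. Of 4604 genes measured, 191 were called higher (4.15%) and 321 lower (6.97%). The interval lay wholly beyond 1.5-fold for 11 higher (0.239%) and 16 lower genes (0.348%), and the median log2 ratio of all genes was −0.05. Without ribosomal and mitochondrial genes in the totals, the split was 267 higher and 249 lower.

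Of 12 naive transcription factors, 5 were called higher and none lower, with a median of 0.19, and of 12 naive surface and signalling genes, 4 higher and none lower, with a median of 0.23. Dapl1 stood at 63.2 CPM in the knockout and 306 CPM in the double knockout, 4.84-fold higher (3.58 to 6.68). Igfbp4 was 3.17-fold higher (2.44 to 4.16), at 90.9 and 288 CPM. Ly6c1 was 6.59-fold higher (3.45 to 14.1), at 13.2 and 86.7 CPM. Dapl1 was thus close to its aged WT level of 297 CPM, and Igfbp4 stayed below its level of 591 CPM. Satb1 was 2.59-fold higher (2.03 to 3.35), at 105 and 273 CPM, Lef1 2.02-fold higher (1.66 to 2.46), at 182 and 367 CPM, and Ccr7 1.82-fold higher (1.51 to 2.20), at 201 and 367 CPM. N6amt1, a methyltransferase gene, stood at 10.5 and 41.0 CPM and was 3.89-fold higher (1.84 to 9.49), and Rgcc at 23.7 and 67.8 CPM, 2.86-fold higher (1.71 to 5.05).

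Of 19 effector memory genes, none was called higher and 12 were called lower, with a median of −0.71. S100a6 was 2.12-fold lower (1.94 to 2.32), at 1438 and 678 CPM, and S100a4 was 2.07-fold lower (1.79 to 2.38), at 578 and 280 CPM. Itgb1 was 1.82-fold lower (1.55 to 2.14), at 423 and 233 CPM. All of these remained above their young WT levels. Ahnak, a large scaffold protein, was 2.02-fold lower (1.503 to 2.72), at 137 and 67.8 CPM, and Ccl5 had a ratio of 0.434 (0.375 to 0.503).

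Of 13 regulatory T genes 7 were measured, of which 5 were called lower and none higher, with a median of −0.89. Ikzf2 was 1.85-fold lower (1.62 to 2.12), at 622 and 335 CPM, and Nrp1 had a ratio of 0.530 (0.416 to 0.675), at 195 and 103 CPM. Foxp3 had a ratio of 0.504 (0.336 to 0.753), at 75.1 and 37.8 CPM. Of 17 follicular helper genes 10 were measured, of which 4 were called lower and none higher, with a median of −0.55. Maf was 1.958-fold lower (1.52 to 2.53), at 179 and 91.5 CPM, while Icos stood at 124 and 106 CPM, a ratio of 0.854 (0.651 to 1.12). Of 11 inhibitory receptor and Tox genes 6 were measured, of which 3 were called lower and none higher, with a median of −0.57.

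The gene named first among the lower ones was Casp4, a caspase of the response to bacterial lipopolysaccharide, at 1.18, 26.7, 75.1 and 23.7 CPM, 3.17-fold lower in the double knockout (2.01 to 5.12). Gpm6b was 2.05-fold lower (1.57 to 2.67), at 171 and 83.6 CPM, and Ly6a 1.72-fold lower (1.53 to 1.93), at 768 and 447 CPM. Rnaset2a and Rnaset2b, near-identical ribonuclease genes between which reads could be split, were 2.38-fold (1.86 to 3.05) and 2.08-fold lower (1.57 to 2.76). Smco4 was 2.15-fold lower (1.58 to 2.93), at 130.4 and 60.7 CPM. NF-kB genes had 1 of 18 members called higher and 3 lower, with a median of −0.13.

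Without cells carrying a memory or regulatory marker, the ratio of Igfbp4 between double knockout and knockout was 1.12 (0.822 to 1.55) and that of S100a6 was 0.967 (0.400 to 2.82). Dapl1 kept a ratio of 4.24 (2.39 to 8.29), and Ccl5 of 0.287 (0.174 to 0.481). Only 42 knockout cells were left in this setting, and its limits given above apply here too. Erythroid RNA was lower in the double knockout, at 128 and 16.6 CPM, myeloid RNA was alike, at 1036 and 1044 CPM, and their part in the result was not tested. Cd8a and Cd8b1 together were 2.03-fold higher (1.59 to 2.61) and the B cell markers had a summed ratio of 0.612 (0.552 to 0.679). Without cells that held a UMI of Foxp3, Cd8a or Cd8b1, Igfbp4 had a ratio of 3.21, Lef1 of 2.10 and Dapl1 of 4.23 between double knockout and knockout. Without cells that held at least 2 B cell marker UMIs, these ratios were 3.21, 1.98 and 4.64.

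Set against aged WT, which shares its library with both earlier comparisons, the double knockout differed less. Of 5034 genes measured, 205 were called higher (4.07%) and 192 lower (3.81%), with a median of 0.00, and the interval lay wholly beyond 1.5-fold for 14 higher (0.278%) and 21 lower genes (0.417%). Effector memory genes had 3 of 20 members called higher and 2 lower, with a median of 0.29. Regulatory T genes had 4 of 7 measured higher and none lower, with a median of 0.61. Follicular helper genes had 5 of 10 measured higher and none lower, with a median of 0.56. Ikzf2 was 1.92-fold higher (1.62 to 2.29), at 174 and 335 CPM, and S100a6 was 1.58-fold higher (1.42 to 1.77), at 428 and 678 CPM. Igfbp4 was 2.05-fold lower (1.80 to 2.34), at 591 and 288 CPM, and Irgm1 was 3.48-fold lower (2.19 to 5.70), at 68.5 and 19.7 CPM. Ccdc69 was 2.45-fold higher (1.53 to 4.03), at 22.2 and 54.4 CPM. Naive transcription factors had none of 12 called higher and 1 lower, with a median of 0.03, and naive surface genes none higher and 3 lower, with a median of −0.09.

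**Figure D3:**
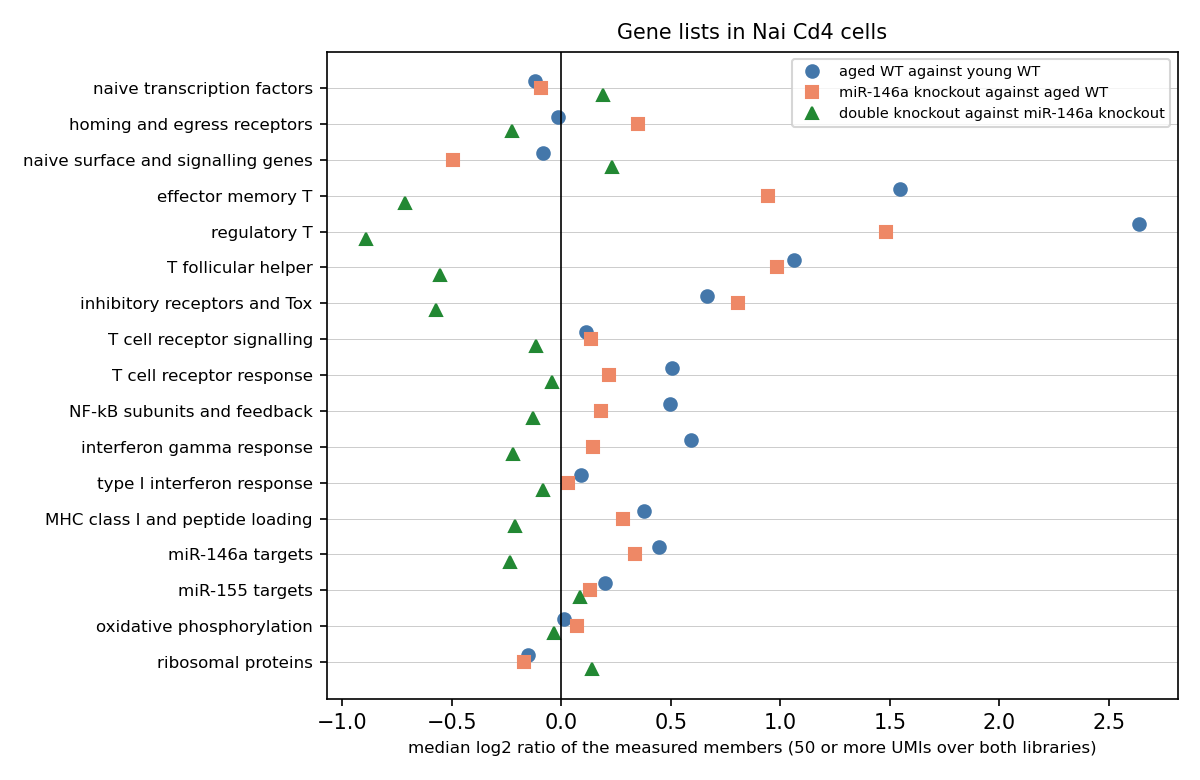
Each marker gives the median log2 ratio of the measured members of a list in Nai Cd4 cells, for aged WT over young WT (circles), miR-146a knockout over aged WT (squares) and double knockout over miR-146a knockout (triangles). The regulatory T list lies at 2.64, 1.48 and −0.89 and the effector memory list at 1.55, 0.94 and −0.71, while ribosomal, oxidative phosphorylation and T cell receptor signalling lists stay near 0; adjacent comparisons share a library.

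Within the Nai Cd4 name, single cells fell into classes by whether they held a UMI of a naive set (Igfbp4, Lef1, Ccr7) or of a memory or regulatory set (6 and 4 markers). After thinning, 71.1% of young WT cells held only naive set UMIs and 2.90% only memory or regulatory ones. In aged WT these shares were 46.8% and 24.7%, in the knockout 10.4% and 63.0%, and in the double knockout 32.8% and 34.8%. Cells with both were 5.95%, 12.7%, 13.6% and 15.3%, and cells with neither 20.01%, 15.8%, 12.99% and 17.1%.

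Mem Cd4 cells held only memory or regulatory UMIs in 44.3%, 79.8%, 85.4% and 84.1% of cells, above the Nai Cd4 share in each library. Fo B cells did so in 3.08%, 3.28%, 5.72% and 4.03%, near the Nai Cd4 share in young WT and below it in the aged libraries. This class leaves out cells that also held a naive set UMI, which were fewer among Fo B cells. Cells with both were 1.30%, 1.19%, 0.502% and 1.34% of Fo B cells, below the Nai Cd4 share in each library, with 5.95% in young WT. Fo B cells held only naive set UMIs in 20.7%, 19.0%, 10.7% and 16.04% of cells, as B cells also express Ccr7. The median depths of Mem Cd4 cells were 2253, 1751, 1994 and 1788.5 UMIs. The knockout was thus the library in which the Nai Cd4 name was most often given to cells without a naive set UMI.

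**Figure D4:**
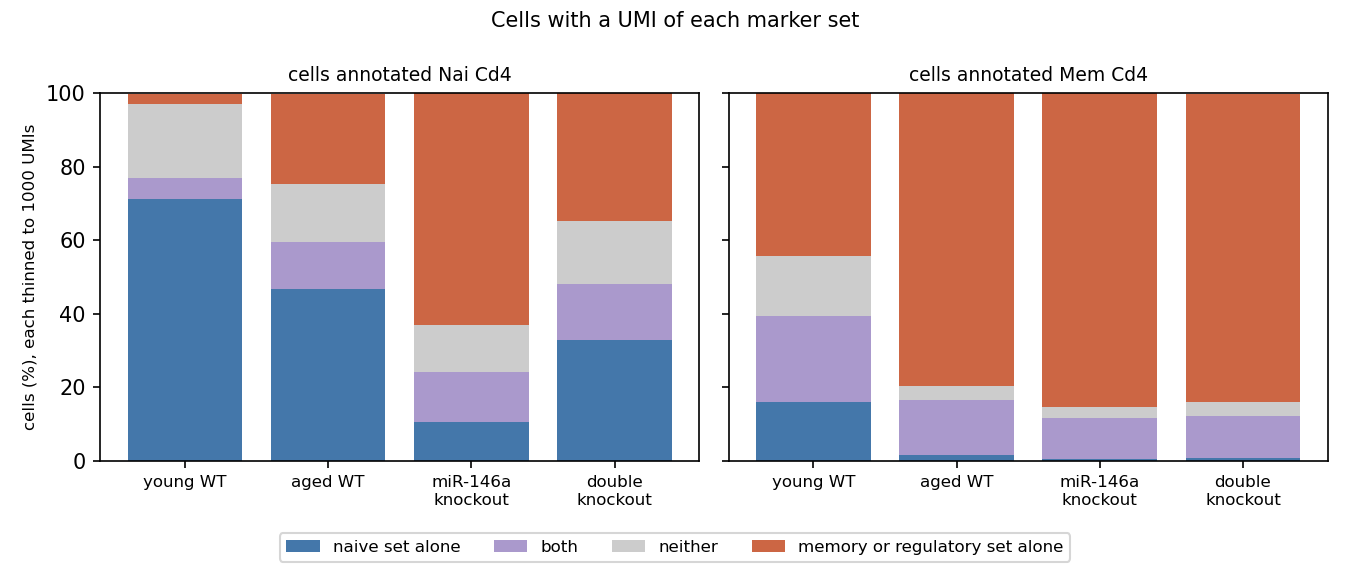
Stacked bars give the percentage of cells annotated Nai Cd4 (left) or Mem Cd4 (right), each thinned to 1000 UMIs, that held a UMI of the naive set alone, of both sets, of neither, or of the memory or regulatory set alone. In Nai Cd4 cells the last class grows from 2.90% in young WT to 24.7% in aged WT and 63.0% in the miR-146a knockout, and is 34.8% in the double knockout.

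In the 3 aged libraries Igfbp4 was found less often in cells with Ikzf2 or S100a6 than in cells without them, while Foxp3, Nrp1 and S100a4 were found more often in cells with Ikzf2 than in cells without it. In aged WT, Igfbp4 was found in 3.08% of the 65 cells with an Ikzf2 UMI and in 30.5% of the 416 without one. In the knockout it was found in none of the 105 cells with Ikzf2 and in 8.87% of the 203 without. Among 78 aged WT cells with S100a6, 1.28% had Igfbp4, beside 31.8% of the 403 cells without it. In the double knockout, 0.813% of 123 cells with Ikzf2 and 18.1% of 480 without had Igfbp4. Cells with Ikzf2 had Foxp3 in 10.8% of cells in aged WT, 9.52% in the knockout and 10.6% in the double knockout, beside 2.40%, 2.96% and 2.08% of cells without it. Nrp1 was found in 21.5% of aged WT cells with Ikzf2 and 25.8% of those with Itgb1, beside 4.81% of cells without Ikzf2 and 4.10% without Itgb1. S100a4 was found in 26.2% of aged WT cells with Ikzf2 and 8.41% of those without. Lef1 was not set apart in this way throughout: in the knockout it was found in 14.3% of cells with Itgb1 and 11.2% of those without. Foxp3 was found in 1.52%, 0% and 6.54% of cells with Itgb1 in aged WT, knockout and double knockout, beside 3.86%, 7.14% and 3.23% without. In aged WT Mem Cd4 cells, Foxp3 was found in 8.36% with Ikzf2 and 1.94% without. Nrp1 was found there in 25.8% and 31.6%, and S100a4 in 16.1% and 27.7%. These shares rest on thinned cells, and a gene can be missed in a cell that expresses it.

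The same genes were read in Mem Cd4 and Nai Cd8 cells of the same libraries. In the knockout against aged WT, Itgb1 went opposite ways. It was 1.92-fold higher (1.62 to 2.28) in Nai Cd4 cells and had a ratio of 0.496 (0.428 to 0.574) in Mem Cd4 cells, at 246, 470, 233 and 296 CPM. The ratio of these ratios was 3.88 (3.12 to 4.83). It was the only gene with an interval wholly beyond 1.5-fold in opposite directions in the 2 types in this comparison, among 4286 genes read in both. Cxcr3 had a ratio of 0.724 (0.615 to 0.853) in Mem Cd4 cells, and a ratio of ratios of 3.37 (2.55 to 4.45).

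S100a6 stood at 300.5, 1205, 1226 and 1513 CPM in Mem Cd4 cells, a knockout ratio of 1.02 (0.944 to 1.10), and the ratio of ratios was 3.30 (2.90 to 3.76). Ikzf2 stood at 602, 1169, 1528 and 1368 CPM there, above its Nai Cd4 level in each library, with a knockout ratio of 1.31 (1.22 to 1.41) and a ratio of ratios of 2.73 (2.27 to 3.27). In Nai Cd8 cells Ikzf2 stayed between 13.9 and 22.6 CPM. The Ikzf2 levels in the aged Nai Cd4 cells therefore lay between those of the other 2 types.

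Igfbp4 was nearly absent from Mem Cd4 cells of the aged libraries, at 65.1, 3.01, 0 and 2.15 CPM. In Nai Cd8 cells it stood at 216, 505, 299 and 317 CPM, a knockout ratio of 0.591 (0.473 to 0.733), and the ratio of the Nai Cd4 to the Nai Cd8 ratio was 0.260 (0.188 to 0.361). For Lef1 the knockout ratio in Nai Cd8 cells was 0.434 (0.339 to 0.551), with a ratio of ratios of 0.962 (0.711 to 1.30), so no difference between the types was detectable. Ccl5 stood at 131, 503, 8686 and 1282 CPM in Nai Cd8 cells, 17.3-fold higher (15.7 to 19.1) in the knockout than in aged WT, more than in Nai Cd4 cells. The knockout library held 93 Nai Cd8 cells, the fewest of the 4.

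**Figure D5:**
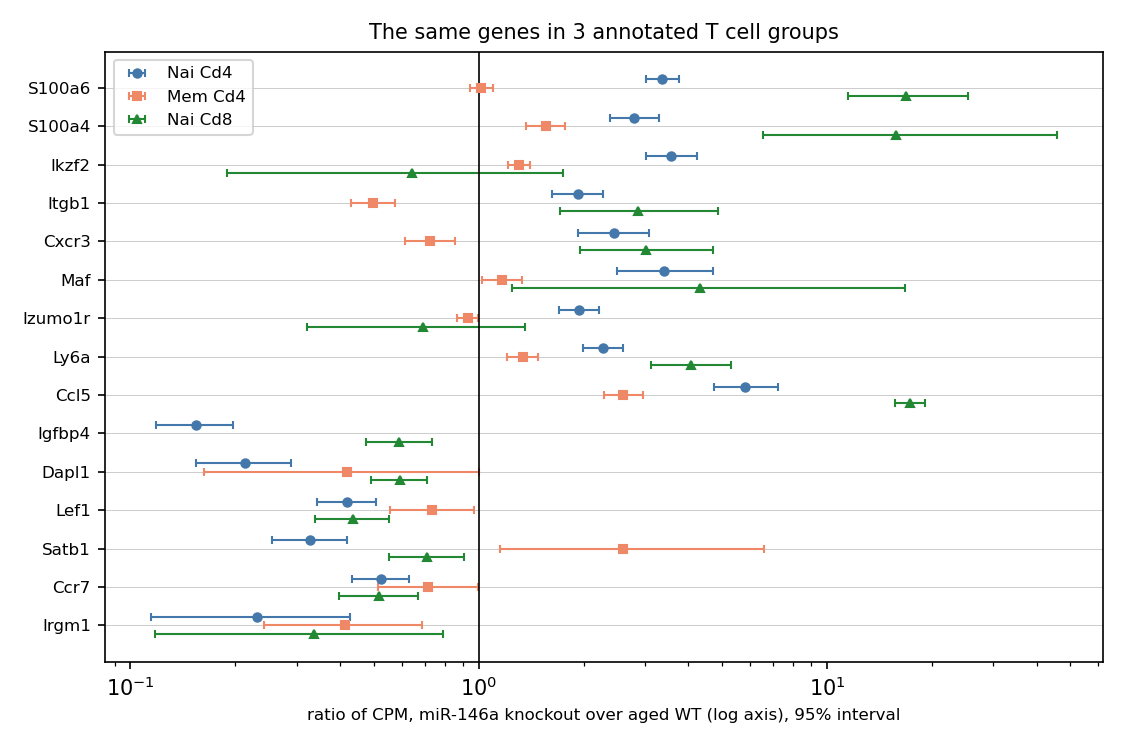
Points give the ratio of CPM in the miR-146a knockout over aged WT on a log axis, with 95% counting intervals, in Nai Cd4 (circles), Mem Cd4 (squares) and Nai Cd8 cells (triangles); Igfbp4 has no Mem Cd4 point because the knockout had no UMI there. Itgb1 lies at 1.92 in Nai Cd4 and 0.496 in Mem Cd4 cells, and Irgm1 lies below 1 in all 3.

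Known targets of the 2 microRNAs were read last. Of 7 measured miR-146a targets, 1 was called higher in the knockout and none lower, with a median of 0.34. Among all genes 7.97% were called higher, so a single call is near that share. The gene called was Icos, at 62.3 and 124 CPM, a ratio of 1.99 (1.44 to 2.75). Icos is also among the memory markers and was already higher in aged than in young WT. Traf6, whose site is shown above, stood at 7.39, 6.23, 15.8 and 6.31 CPM with 25, 7, 12 and 8 UMIs, too few to be measured. Irak1 stood at 25.7, 29.4, 26.3 and 18.9 CPM, a knockout ratio of 0.897 (0.488 to 1.61). Other named genes with the miR-146a letters went different ways between aged WT and the knockout. Ikzf2 stood at 174 and 622 CPM, N6amt1 at 33.8 and 10.5 CPM and Rnmt at 55.2 and 42.1 CPM. Over all 225 measured genes with the miR-146a letters in the UTR, the median log2 ratio in the knockout was 0.06, beside 0.05 in genes without them, and 8.44% beside 7.87% were called higher.

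Of 13 measured miR-155 targets, none was called higher in the double knockout against the knockout and 2 lower, with a median of 0.09. Among all genes 4.15% were called higher and 6.97% lower. Socs1 stood at 29.5, 64.1, 93.5 and 66.2 CPM, a ratio of 0.708 (0.510 to 0.986), and Inpp5d, the phosphatase SHIP-1, at 24.5, 28.5, 35.6 and 44.9 CPM, a ratio of 1.26 (0.786 to 2.08). Ets1, a transcription factor with a site, stood at 507, 456, 498 and 534 CPM, a ratio of 1.07 (0.944 to 1.22). Maf and Ifngr1 were the members called lower. Over the 179 measured genes with the miR-155 letters, the median was −0.03, beside −0.05 in the others, while 2.79% beside 4.22% were called higher and 8.38% beside 6.80% lower.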

How the data were processed

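Spleen cells were measured with 10x droplet single-cell RNA-seq in 4 libraries, 1 per group. The authors deposited 1 matrix of UMI counts per library and a table of cell type names; per the submitters' processing notes, Cell Ranger 3.0.0 and mm10 were used. Per the labels' protocols, kits of 3′ and of 5′ chemistry are both mentioned, and no source used here gives the strand setting or how cells were named. The names of the deposited table were joined to barcodes by library.

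UMI counts were summed over Nai Cd4 cells and scaled to CPM. Ratios have exact conditional binomial 95% intervals, CPM Poisson, shares Clopper-Pearson and share ratios Katz intervals, all covering counting error only. The sums hold 759310 to 3384506 UMIs. With 1 library per group no test was made. Genes counted as measured at 50 UMIs or more over both libraries and as called at 1.5-fold. Up to 12 higher and 12 lower genes per comparison were named, ranked by the interval bound nearest 1, where the interval lay wholly beyond 1.5-fold and the higher library had at least 50 UMIs in at least 20 cells. Genes under 20% of the highest CPM among other named types with at least 20 cells were left out, as were antigen receptor, haemoglobin, mitochondrial, ribosomal, sex-linked marker and unnamed genes. The markers, Cd4, Cd8a, Mir155hg and each list's top and bottom member were added, some genes are not reported here, and other list members given are examples chosen after their values were seen. The cells, lists and rules were chosen with earlier results of these data known. Per-cell shares used cells thinned to 1000 UMIs. The authors name doublets of T and B cells apart, 550 cells, and no doublet caller was run.

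TMM factors came from edgeR 4.0.16 and size factors from DESeq2 1.42.0, in R 4.3.3, for scaling only. Other steps used Python 3.11.15, numpy 2.4.6, scipy 1.17.1, pandas 2.3.3 and matplotlib 3.10.9. The steps were tested on simulated data.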

Additional observations from a re-analysis of the deposited data

How the results depend on the processing

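No paired analysis was possible because each group is 1 library, and for the same reason no replicate could be left out. Counts of called genes moved with the scaling, the UMI floor, the fold, the depth and the cells kept. In aged against young WT, 559 genes were higher, and 358 with TMM factors, 365 with DESeq2 size factors, 352 with totals free of ribosomal and mitochondrial genes, 1094, 235 and 3104 at floors of 20, 100 and 1 UMIs, 122 at a fold of 2, 363 with thinned cells and 357 without cells that held a memory or regulatory marker. The last setting was chosen after seeing the data. The 233 lower genes became 491, 73 and 2345 at these floors and 47 at a fold of 2. In the knockout against aged WT, the 348 higher genes became 872, 141 and 2854 at these floors, 99 at a fold of 2, 209 with thinned cells and 127 without the marked cells, and the 225 lower genes became 629, 76, 2395, 56 and, with thinned cells, 121. In the double knockout against the knockout, the 191 higher genes became 533, 53, 2325, 28 and 121 in the same order, and the 321 lower ones 839, 106, 3173, 43 and 149, and 151 without the marked cells. In the double knockout against aged WT, the 205 higher genes became 572, 57, 2509 and 29, and 86 without the marked cells, and the 192 lower ones 589, 57, 2287, 35 and, with thinned cells, 114. Fewer UMIs or cells leave fewer genes to measure.

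Lists with a median at least 0.5 above that of all genes numbered 4 with age, but 2 at a floor of 100 UMIs, 2 with thinned cells and 1 without the marked cells. In the knockout they numbered 6, and 1 without the marked cells. Lists as far below numbered 1 there, 0 at a floor of 100 UMIs and 2 without the marked cells. In the double knockout against the knockout, 5 lists lay below, but 3 with the mean of cell CPM, 3 without cells holding B cell markers and 1 without the marked cells. Against aged WT, 2 lay above, but 1 at a floor of 1 UMI, 4 with thinned cells and 0 without the marked cells, and 1 lay below at a floor of 100 UMIs. The median of effector memory genes with age was −0.18 without the marked cells, where the cells left out were chosen by some of these genes. The share of Nai Cd4 cells in aged over young WT was 0.404, and 0.577 among T cells and 0.596 among CD4 cells. The knockout share ratio was 0.727 among CD4 cells, and the double knockout share ratio against aged WT 0.958. Without thinning, Igfbp4 was found in 44.3%, 35.1% and 21.9% of young WT, aged WT and double knockout cells. The causes of these changes were not tested otherwise.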

Other observations

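Genes near the deleted miR-146a gene were read as values, in a window of 10 Mb on either side that was chosen after the values were seen. Of 40 measured genes in the window, 3 were at least 1.5-fold lower in both knockout libraries than in aged WT (7.5%), namely Ebf1, Irgm1 and 9930111J21Rik2, beside 55 of 4311 genes elsewhere (1.28%). Another 2 were higher in both, Clint1 and Sqstm1, beside 78 elsewhere (1.81%). The 2 knockout libraries share the aged WT library as their reference. Ebf1 is a B cell gene. It stood at 35.6, 21.1 and 11.04 CPM in Nai Cd4 cells of aged WT, knockout and double knockout, where the B cell markers summed to 1370, 961 and 588 CPM, and at 1660.5, 1693 and 1684 CPM in Fo B cells. Irgm1 was low in both knockout libraries in each type read. In Mem Cd4 cells it stood at 52.0, 45.2, 18.6 and 13.6 CPM in young WT, aged WT, knockout and double knockout, and in Fo B cells at 27.6, 45.9, 11.6 and 11.8 CPM. 9930111J21Rik2, a neighbouring gene model, stood at 114, 108.5, 44.8 and 38.6 CPM in Nai Cd4 cells and at 119.7, 92.3, 26.8 and 22.2 CPM in Mem Cd4 cells.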
